A study of Mus musculus with 8 samples.

Results

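T cells that carried full-length TOX (TOXFL) were set against T cells that carried a shortened TOX (TOXdeltaN), in both cases after sorting for the brightest GFP signal. The members are the 2 TOXFL-positive and the 2 TOXdeltaN-positive RNA-seq libraries, 4 of the 8 libraries of the study, read over all 31815 mouse gene rows and without the 92 spike-in rows, which hold no counts. All cells were CD8 T cells from spleens of OT-I mice (C57BL/6-Tg(TcraTcrb)1100Mjb/J), whose transgenic T cell receptor recognises an ovalbumin peptide. They were stimulated with the peptide for 3 days, were given a vector at 24 h that carries either TOX form followed by IRES-GFP, and were sorted on day 5. The TOXFL-positive and TOXdeltaN-positive groups are the top 20% of GFP-positive cells of each culture. The TOXFL-negative and TOXdeltaN-negative groups are the GFP-negative cells that had been through the same stimulation and vector step, and each of the 4 groups has 2 libraries. The ages of the mice, and whether the 2 libraries of a group come from separate animals or cultures, are not given in the sources used here. The p-values below therefore take in the spread among the libraries and nothing wider, and that spread may be technical. Cells with a vector for GFP alone were not analysed here, so both positive groups carry a TOX form and the comparison is between forms.

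TOX is a nuclear protein that binds DNA through an HMG box. In CD8 T cells it is known for its part in T cell exhaustion, the state of chronically stimulated T cells that keep inhibitory receptors such as PD-1 on their surface. Delta N is the usual notation for a protein that lacks part of its N-terminus; the HMG box of TOX lies toward the middle of the protein.

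No gene separated TOXFL-positive from TOXdeltaN-positive cells in the test over all genes, although both groups held several-fold more Tox reads than their GFP-negative cells. Of 13329 genes tested, 0 (0%) were higher and 0 (0%) were lower in TOXFL-positive cells at an adjusted p under 0.05 (edgeR quasi-likelihood test, adjusted by Benjamini-Hochberg across every tested gene). The smallest adjusted p was 0.822. At an unadjusted p under 0.05, 295 genes (2.21%) were higher and 473 genes (3.55%) were lower, 768 in all (5.76%). With the replicate number as a block, which the libraries' correlations give reason to use, 1 gene was called, Taf15: 0 genes (0%) were higher and 1 (0.0075%) was lower. The same counts in DESeq2 gave 2 genes higher (0.015%) and 17 lower (0.128%), and limma-voom gave 0, with 789 genes at an unadjusted p under 0.05.

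The precision of the comparison sets what it could show. Over the 9054 tested genes with a mean above 8 CPM (counts scaled to a library total of 1e+06 after TMM normalisation), the median half-width of the 95% interval of a log2 fold change was 0.27. For 8957 of them (98.9%) the estimated log2 fold change lay within 0.5 of 0. For 8934 (98.7%) the whole 95% interval lay within 1 of 0, that is, it did not reach a doubling or a halving.

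**Figure D1:**
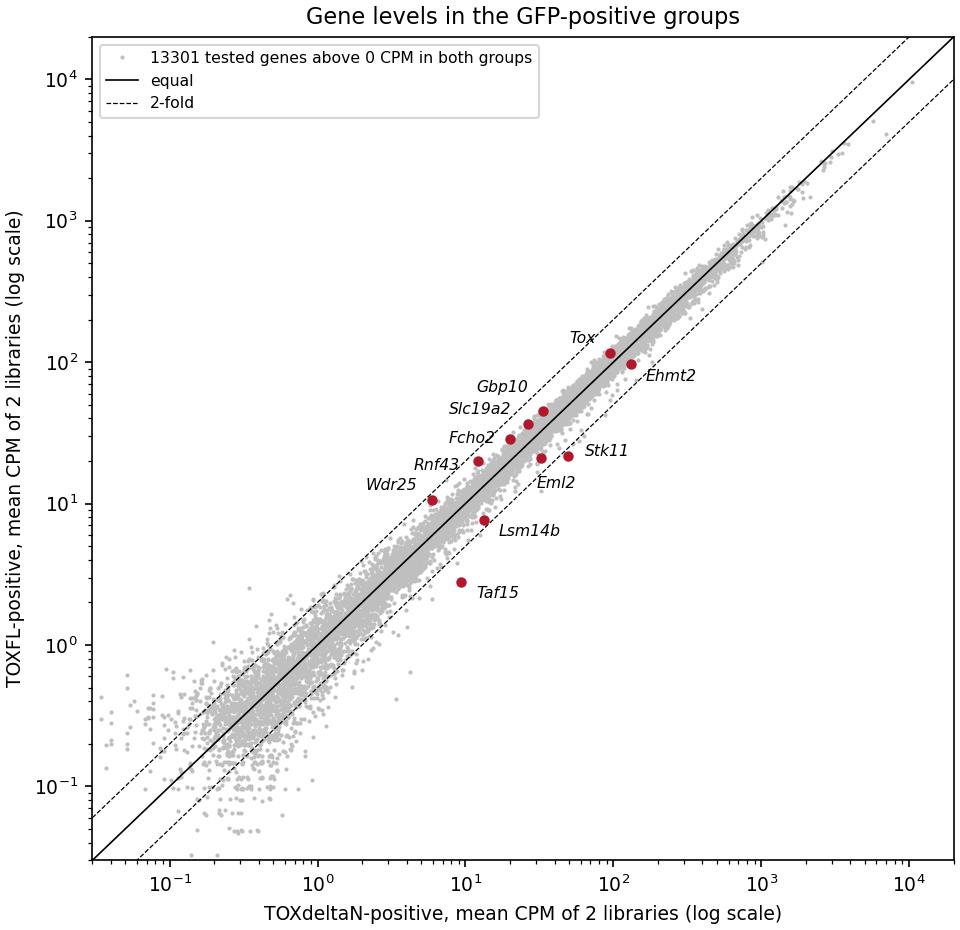
Mean CPM in TOXFL-positive cells (vertical, log axis) against TOXdeltaN-positive cells (horizontal, log axis), 1 point per tested gene with a mean above 0 CPM in both groups; the dashed lines mark a 2-fold difference. The points follow the diagonal, and Taf15 and Stk11 lie below the lower line.

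The libraries hold 25059112 to 31240067 counts over genes, with a count at 16577 to 16943 genes. Replicates of a group differed by more than sampling noise, with a chi-square over genes of 19.7 per degree of freedom in the TOXFL-positive group and of 40.1 in the TOXdeltaN-positive group, against 11.6 in each negative group. The CD8 T cell markers were high in every positive library: Cd8a, a chain of the CD8 co-receptor, stood at 764.1 and 757.1 CPM in TOXFL-positive cells and at 763.7 and 787.4 CPM in TOXdeltaN-positive cells. Markers of the other lymphocyte types (CD4, NK and gamma-delta) summed to 202.0 and 208.5 CPM in TOXFL-positive cells and 206.5 and 186.0 CPM in TOXdeltaN-positive cells. Most of each sum was the activation gene Il2ra, at 191.9 and 202.1 CPM in TOXFL-positive cells and 194.4 and 180.3 CPM in TOXdeltaN-positive cells. Of markers of other cells, 16 myeloid and dendritic genes summed to 24.9 and 42.3 CPM in TOXFL-positive cells and 26.3 and 45.2 CPM in TOXdeltaN-positive cells. Of this list, Cd74 had 8.26 and 23.85 CPM in TOXFL-positive cells and 9.19 and 25.22 CPM in TOXdeltaN-positive cells. H2-Ab1 had 13.37 and 11.64 CPM in TOXFL-positive cells and 11.55 and 16.23 CPM in TOXdeltaN-positive cells. Adgre1, S100a8, S100a9 and Siglech were at 0 in all libraries. The B cell sum was 16.7 and 14.5 CPM in TOXFL-positive cells and 14.2 and 14.5 CPM in TOXdeltaN-positive cells. Most of it was Cd79b, at 15.7 and 14.22 CPM in TOXFL-positive cells and 13.12 and 13.75 CPM in TOXdeltaN-positive cells, while Pax5 was at 0. The erythroid sum was under 1 CPM in 3 of the 4 positive libraries and 4.34 CPM in TOXdeltaN-positive replicate 1. Hba-a2 had 2.085 CPM in that library, and Slc4a1 was at 0. The part of these cells in the results was not tested, and in bulk libraries fewer cells of a type and less RNA per cell cannot be told apart.

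Tox itself (ENSMUSG00000041272.11, GRCm38 chromosome 4, 6686353 to 6991557) checks the GFP-positive and GFP-negative labels, but not which TOX form a library carried. Here and below, pairs of values are replicates 1 and 2 of a group. It had 104.8 and 126.3 CPM in TOXFL-positive cells and 107.2 and 82.9 CPM in TOXdeltaN-positive cells. GFP-negative cells had 25.1 and 34.4 CPM with TOXFL and 21.8 and 32.2 CPM with TOXdeltaN. The 4 positive libraries thus lay above all 4 negative ones, while the 2 positive groups overlapped. The log2 fold change of TOXFL-positive over TOXdeltaN-positive cells was 0.28 (95% interval -0.19 to 0.75, adjusted p = 0.829, edgeR). Reads of the cell's own gene and of the vector are held together in this count, so the sequence missing from TOXdeltaN is not seen in it.

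Among relatives and partners of TOX, 12 genes of the TOX family and of the HBO1 histone acetyltransferase complex were tested, and their median log2 fold change was 0.08, beside 0.01 over all tested genes. The one with an unadjusted p under 0.05 was Jade3, a scaffold subunit of the complex, at 16.5 and 15.7 CPM in TOXFL-positive cells and 14.1 and 8.35 CPM in TOXdeltaN-positive cells. Tox4 had 171.5 and 196.4 CPM in TOXFL-positive cells and 173.4 and 154.3 CPM in TOXdeltaN-positive cells. Tox2 and Tox3 had too few counts to be tested. Within this list the positive groups overlapped for all genes other than Jade3, while over all tested genes they lay apart at 2122 (15.9%) in the higher and at 2141 (16.1%) in the lower direction.

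The gene nearest to a difference was Taf15, an RNA-binding protein. Taf15 and the other 4 genes with the smallest p among those lower in TOXFL-positive cells were each lower in both TOXFL-positive libraries than in all 6 other libraries of the study. Over all tested genes this was so at 532 (3.99%). Part of the pattern was fixed by the naming rule, which took only genes whose positive groups did not overlap. The start regions of the 5 genes are shown because that rule picked them as those with the smallest p in the lower direction. Each is the window from 130 bases before to 20 bases after a RefSeq gene start (GRCm38.p6), 5′ to 3′ on the gene's strand, with matches to 5 short motifs in capitals.
Taf15, chr11:83472978-83473127, plus strand: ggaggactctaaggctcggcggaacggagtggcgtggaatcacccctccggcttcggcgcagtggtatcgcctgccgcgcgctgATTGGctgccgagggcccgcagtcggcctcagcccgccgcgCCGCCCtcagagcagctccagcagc
Stk11, chr10:80115665-80115814, plus strand: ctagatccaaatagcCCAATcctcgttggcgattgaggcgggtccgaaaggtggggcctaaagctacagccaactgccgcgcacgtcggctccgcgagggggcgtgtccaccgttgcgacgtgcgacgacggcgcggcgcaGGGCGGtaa
Lsm14b, chr2:180024857-180025006, plus strand: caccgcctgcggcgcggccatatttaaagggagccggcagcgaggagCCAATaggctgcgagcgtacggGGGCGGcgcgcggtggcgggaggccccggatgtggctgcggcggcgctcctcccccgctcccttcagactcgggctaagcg
Eml2, first of 2 starts, chr7:19176291-19176440, plus strand: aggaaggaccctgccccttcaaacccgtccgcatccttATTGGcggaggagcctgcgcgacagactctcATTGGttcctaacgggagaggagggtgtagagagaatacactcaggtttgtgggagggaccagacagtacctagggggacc
Ehmt2, first of 2 starts, chr17:34898344-34898493, plus strand: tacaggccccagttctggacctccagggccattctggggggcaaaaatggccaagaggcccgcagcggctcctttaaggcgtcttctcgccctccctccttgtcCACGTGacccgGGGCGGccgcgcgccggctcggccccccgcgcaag
The motifs searched on both strands were the GC box (GGGCGG), the CCAAT box (CCAAT), an E-box (CACGTG), the TATA box (TATAAA) and an ETS-type site (CCGGAAGT). The windows of Taf15, Stk11 and Lsm14b each hold 1 GC box and 1 CCAAT box. The first Eml2 window holds 2 CCAAT boxes, and the first Ehmt2 window holds 1 GC box and 1 E-box. The windows at the second starts of Eml2 and Ehmt2, not printed, hold 2 GC boxes each and neither a CCAAT box nor an E-box. Of 32851 windows of the same length at mouse gene starts, 29.1% hold a GC box, 24.2% a CCAAT box, 4.45% the E-box, 7.36% the TATA box and 2.94% the ETS-type site. For the genes with the smallest p among those higher in TOXFL-positive cells, neither Rnf43 window holds any of the motifs, the Fcho2 window holds 1 GC box and the Slc19a2 window 2. Gbp10 and Wdr25 have no window. A match is a description of letters and not a site of binding.

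Taf15 (ENSMUSG00000020680.15, GRCm38 chromosome 11, 83473086 to 83506743) had 3.52 and 2.10 CPM in TOXFL-positive cells and 10.4 and 8.43 CPM in TOXdeltaN-positive cells. The GFP-negative cells had 13.1 and 10.9 CPM with TOXFL and 10.5 and 8.60 CPM with TOXdeltaN. Both TOXFL-positive libraries were low, and the TOXdeltaN-positive libraries stood with the negative ones. The log2 fold change was -1.74 with a standard error of 0.261 (95% interval -2.33 to -1.16), with an unadjusted p of 7.39e-05 and an adjusted p of 0.822 in edgeR without a block. With the replicate block it was -1.76 with a standard error of 0.184, and the adjusted p was 0.0317 (edgeR). Without the block Taf15 was also called by DESeq2 (adjusted p = 1.35e-05), without the filter on low counts (7.33e-10), without TOXFL-positive replicate 1 (0.0249) and without TOXdeltaN-positive replicate 1 (0.0297). The highest adjusted p, 0.968, came without TOXFL-positive replicate 2, where the Taf15 log2 fold change was -1.42 (edgeR). With the block, the call was lost when TOXFL-positive replicate 2, TOXdeltaN-positive replicate 2 or either of the TOXdeltaN-negative libraries was left out. Among GFP-negative cells the log2 fold change of TOXFL over TOXdeltaN was 0.33. The difference between the positive and the negative comparison was -2.07 on the log2 scale, with an adjusted p of 1 without the block and of 0.0989 with it.

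Stk11 (ENSMUSG00000003068.16, GRCm38 chromosome 10, 80115803 to 80130682), the kinase LKB1 that switches on AMP-activated kinase, had 28.2 and 15.3 CPM in TOXFL-positive cells and 54.6 and 44.7 CPM in TOXdeltaN-positive cells. Its levels in GFP-negative cells were 54.3 and 64.3 CPM with TOXFL and 62.2 and 59.2 CPM with TOXdeltaN. Its log2 fold change was -1.19 (95% interval -1.73 to -0.66, unadjusted p = 0.00064, adjusted p = 0.822, edgeR), and DESeq2 gave an adjusted p of 0.000218. TOXFL-positive replicate 2 was the lowest library, and the log2 fold change was -0.82 without it and -1.70 without TOXFL-positive replicate 1.

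The other 3 genes of the lower direction differed less. Eml2 (ENSMUSG00000040811.15, GRCm38 chromosome 7, 19176421 to 19206482), a microtubule-associated protein, had 21.2 and 20.6 CPM in TOXFL-positive cells and 32.8 and 31.7 CPM in TOXdeltaN-positive cells, a log2 fold change of -0.63 (95% interval -0.89 to -0.36). Ehmt2 (ENSMUSG00000013787.15, GRCm38 chromosome 17, 34898469 to 34914052), the histone H3 lysine methyltransferase G9a, had 92.5 and 100.2 CPM in TOXFL-positive cells and 129.3 and 134.9 CPM in TOXdeltaN-positive cells, a log2 fold change of -0.46 (95% interval -0.65 to -0.26). Lsm14b (ENSMUSG00000039108.14, GRCm38 chromosome 2, 180024987 to 180035465), an RNA-binding protein with an LSm domain, had 8.36 and 7.03 CPM in TOXFL-positive cells and 13.8 and 12.8 CPM in TOXdeltaN-positive cells, a log2 fold change of -0.79 (95% interval -1.15 to -0.43). None of the 3 passed the edgeR test over the 13329 genes, with or without the block, while DESeq2 called Eml2 (adjusted p = 0.0423) and Ehmt2 (adjusted p = 0.0339).

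In the higher direction the gene with the smallest p was Rnf43, a ubiquitin ligase that removes Wnt receptors from the cell surface. It lies on GRCm38 chromosome 11, 87662722 to 87735539, and had 19.9 and 19.9 CPM in TOXFL-positive cells and 11.48 and 12.95 CPM in TOXdeltaN-positive cells. Its log2 fold change was 0.70 (95% interval 0.38 to 1.02, unadjusted p = 0.000694, adjusted p = 0.822, edgeR). GFP-negative cells had 13.01 and 15.64 CPM with TOXFL and 12.3 and 11.2 CPM with TOXdeltaN. The TOXFL-positive libraries were thus the high ones. Wdr25, a WD-repeat protein, had the same order, with 11.4 and 9.64 CPM in TOXFL-positive cells and 6.12 and 5.76 CPM in TOXdeltaN-positive cells. So did Slc19a2, a thiamine transporter, with 33.7 and 39.0 CPM in TOXFL-positive cells and 26.4 and 26.7 CPM in TOXdeltaN-positive cells. These 3 genes were higher in both TOXFL-positive libraries than in all 6 others, as were 3.84% of all tested genes. They had been picked for a small p and positive groups that did not overlap, which fixes part of this order. Without the filter on low counts, edgeR called 116 genes, 30 of them higher and 86 lower, and Rnf43, Taf15, Stk11, Eml2, Ehmt2 and Lsm14b were among them.

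Gbp10 and Fcho2 had another order. Gbp10, an interferon-induced GTPase, had 44.3 and 45.7 CPM in TOXFL-positive cells and 35.0 and 31.9 CPM in TOXdeltaN-positive cells, with a log2 fold change of 0.43 (95% interval 0.22 to 0.64, adjusted p = 0.822, edgeR). GFP-negative cells had more of it, 77.2 and 74.7 CPM with TOXFL and 58.9 and 58.8 CPM with TOXdeltaN. The TOXFL cells were thus above the TOXdeltaN cells in both the GFP-positive and the GFP-negative fraction, the log2 fold change among negative cells being 0.37. Fcho2, which acts in clathrin-mediated endocytosis, had 28.2 and 29.0 CPM in TOXFL-positive cells and 22.0 and 18.2 CPM in TOXdeltaN-positive cells, against 39.9 and 39.1 CPM in TOXFL-negative cells and 31.9 and 35.0 CPM in TOXdeltaN-negative cells. Both genes were lowest in the TOXdeltaN-positive libraries.

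**Figure D2:**
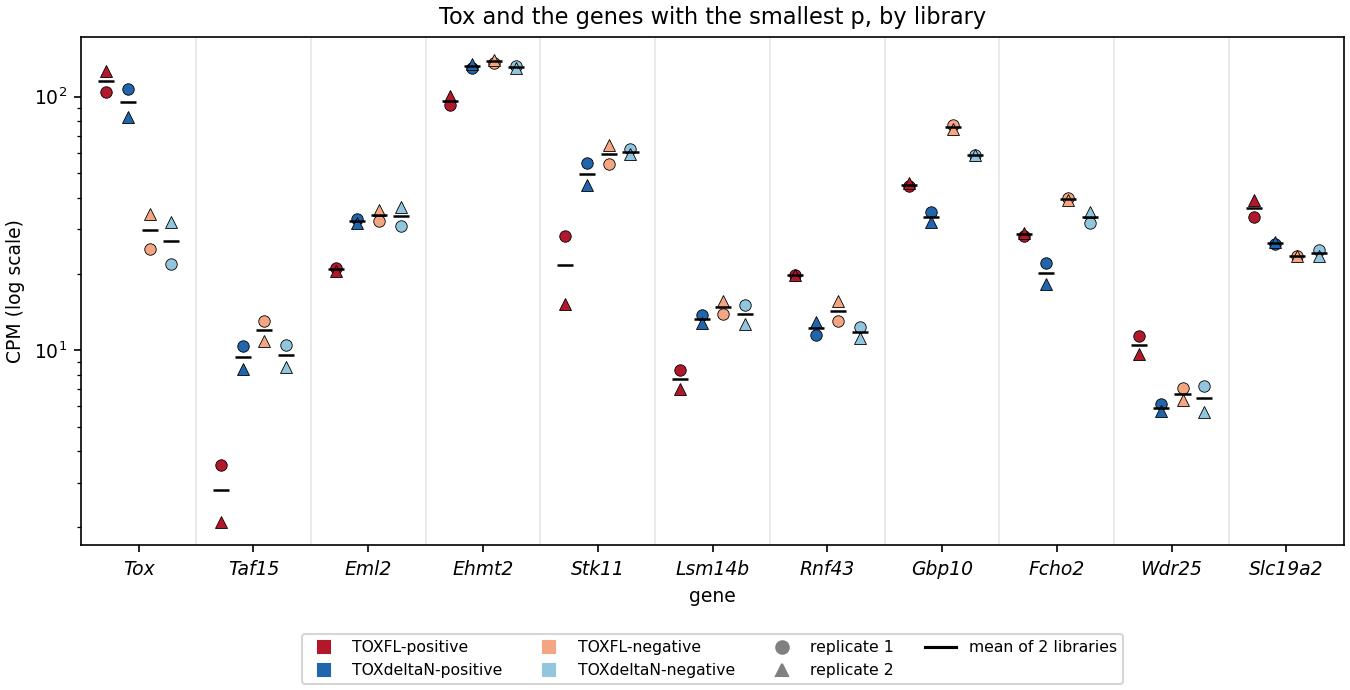
CPM (log axis) of Tox and of the 5 genes with the smallest unadjusted p in each direction, by library; circles are replicate 1, triangles replicate 2 and black bars the mean of the 2 libraries of a group. Taf15, Eml2, Ehmt2, Stk11 and Lsm14b are low in TOXFL-positive cells only, Rnf43, Wdr25 and Slc19a2 are high there only, and Gbp10 and Fcho2 are lowest in TOXdeltaN-positive cells.

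Over all tested genes, the TOXFL-positive libraries were both higher than the other 6 libraries at 512 genes (3.84%) and both lower at 532 (3.99%). The TOXdeltaN-positive libraries were both higher than the other 6 at 803 genes (6.02%) and both lower at 822 (6.17%). Of the 295 genes with an unadjusted p under 0.05 that were higher in TOXFL-positive cells, 68 (23.1%) had the TOXFL-positive libraries above the other 6, and 182 (61.7%) had the TOXdeltaN-positive libraries below the other 6. Of the 473 lower genes, 181 (38.3%) had the TOXFL-positive libraries below the other 6, and 190 (40.2%) had the TOXdeltaN-positive libraries above them. More of the higher genes were thus marked by low TOXdeltaN-positive libraries than by high TOXFL-positive ones. The contrast that chose these genes used the positive libraries, so the shares are a description.

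Single libraries decided how many genes were called. Without TOXFL-positive replicate 1, edgeR called 29 genes, all lower in TOXFL-positive cells; without TOXdeltaN-positive replicate 1 it called 704, of which 509 were higher and 195 lower. In these fits a lone library is assumed to vary like the libraries of the other groups. Of 363 genes above 8 CPM that were lower in TOXFL-positive cells with no overlap and an unadjusted p under 0.05, 335 were lower in TOXFL-positive replicate 2 than in replicate 1, and 311 were higher in TOXdeltaN-positive replicate 2 than in replicate 1. Of 226 such higher genes, 198 were lower in TOXdeltaN-positive replicate 2 than in replicate 1. Gene length moved with the comparison. With genes in 4 classes of equal size by exonic length, the median log2 fold change was -0.10 in the class of the shortest genes (up to 2532 bases) and 0.08 in that of the longest (from 6492 bases). TOXdeltaN-positive replicate 2 deviated from the mean of the libraries by a median of 0.19 (log2) in the class of the shortest genes and of -0.17 in that of the longest. With an offset for length the list medians were -0.27 for ribosomal proteins, -0.35 for mitochondrially encoded genes and -0.28 for histones.

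Genes with a known part in T cell exhaustion, memory and effector function were read next, since TOX is known for that programme. The inhibitory receptors showed no difference that passed the test: of 16 tested, none had an unadjusted p under 0.05 in either direction, and their median log2 fold change was 0.02. Pdcd1, which encodes PD-1, had 102.1 and 146.2 CPM in TOXFL-positive cells and 106.3 and 172.0 CPM in TOXdeltaN-positive cells. GFP-negative cells had 65.4 and 91.6 CPM with TOXFL and 66.4 and 101.3 CPM with TOXdeltaN. Replicate 2 was higher than replicate 1 in each group, and the positive groups overlapped. The log2 fold change of Pdcd1 was -0.16 (95% interval -0.79 to 0.46, adjusted p = 0.929, edgeR).

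The positive groups overlapped for all other members of the inhibitory receptor list but Cd38. Cd38 had 27.68 and 26.71 CPM in TOXFL-positive cells and 26.38 and 24.10 CPM in TOXdeltaN-positive cells. Over all tested genes the groups lay apart in this direction at 15.9%. Lag3 had 41.4 and 51.2 CPM in TOXFL-positive cells and 43.8 and 55.5 CPM in TOXdeltaN-positive cells, with a 95% interval of the log2 fold change of -0.58 to 0.38. Tigit had 27.0 and 34.2 CPM in TOXFL-positive cells and 25.9 and 39.5 CPM in TOXdeltaN-positive cells, with an interval of -0.71 to 0.52. Cd160 had 135.6 and 150.5 CPM in TOXFL-positive cells and 126.4 and 152.5 CPM in TOXdeltaN-positive cells, with an interval of -0.26 to 0.33. With the replicate block the intervals were narrower, at -0.34 to 0.04 for Pdcd1, -0.32 to 0.12 for Lag3, -0.33 to 0.18 for Tigit and -0.14 to 0.22 for Cd160, and each still held 0. Pdcd1 and Lag3 were lower in the TOXFL-positive library in both replicate pairs. Cd96, the inhibitory receptor with the highest level, had 321.6 and 290.7 CPM in TOXFL-positive cells and 297.2 and 296.6 CPM in TOXdeltaN-positive cells. Havcr2, which encodes TIM-3, was under 0.5 CPM in all 4 positive libraries and its interval, -2.20 to 3.24, carries no comparison.

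Among genes of naive and memory T cells, 25 were tested and 1 had an unadjusted p under 0.05: Cxcr5, a chemokine receptor under 1 CPM in all 4 positive libraries. The median log2 fold change of the list was 0.07. Tcf7, which encodes the transcription factor TCF-1, had 734.7 and 707.8 CPM in TOXFL-positive cells and 758.4 and 613.2 CPM in TOXdeltaN-positive cells, a log2 fold change of 0.07 (95% interval -0.16 to 0.31). Klf2, a transcription factor of quiescent and circulating T cells, had 370.3 and 294.5 CPM in TOXFL-positive cells and 367.1 and 305.0 CPM in TOXdeltaN-positive cells, with an interval of -0.35 to 0.32. S1pr1, the receptor that lets T cells leave lymphoid organs and a target of KLF2, had 256.5 and 204.2 CPM in TOXFL-positive cells and 246.2 and 166.8 CPM in TOXdeltaN-positive cells, with an interval of -0.33 to 0.65. The groups overlapped for all 3.

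Genes of cytotoxic granules lay mostly below 0 without any call over all genes. Of 12 tested members 11 had a log2 fold change below 0, with a median of -0.12, and 2 had an unadjusted p under 0.05. Over all 13329 tested genes 6497 were below 0, and 3.55% were lower at an unadjusted p under 0.05. Gzmb, the protease granzyme B, had 247.1 and 255.4 CPM in TOXFL-positive cells and 274.7 and 305.9 CPM in TOXdeltaN-positive cells. The groups did not overlap, as at 16.1% of all tested genes in the lower direction. Its log2 fold change was -0.21 (95% interval -0.41 to -0.01, unadjusted p = 0.044, adjusted p = 0.822, edgeR). With an offset for gene length the Gzmb log2 fold change was -0.09 (adjusted p = 0.912, edgeR). GFP-negative cells had the same order without overlap, 220.1 and 212.0 CPM with TOXFL and 240.6 and 231.4 CPM with TOXdeltaN, a log2 fold change of -0.13. The list's median among GFP-negative cells was -0.08. Among positive cells the list's median ran from -0.22 to -0.04 over the settings where it was read. Gzmc had 10.3 and 7.97 CPM in TOXFL-positive cells and 12.03 and 15.51 CPM in TOXdeltaN-positive cells. The 2 replicate pairs were unlike each other here: the list's median was 0.002 between the replicates 1 and -0.26 between the replicates 2.

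Of 21 effector cytokines and chemokines, Mif was the one with an unadjusted p under 0.05, at 453.3 and 432.6 CPM in TOXFL-positive cells and 479.3 and 645.8 CPM in TOXdeltaN-positive cells. Ifng, which encodes interferon gamma, was low, at 4.91 and 3.95 CPM in TOXFL-positive cells and 4.03 and 7.32 CPM in TOXdeltaN-positive cells, and the groups overlapped. Of 28 transcription factors that T cell receptor signalling induces, Nr4a3, a nuclear receptor, was the one with an unadjusted p under 0.05. It had 5.45 and 5.65 CPM in TOXFL-positive cells and 7.96 and 12.9 CPM in TOXdeltaN-positive cells, a log2 fold change of -0.91 (95% interval -1.56 to -0.26). GFP-negative cells had 9.51 and 15.6 CPM with TOXFL and 12.6 and 16.4 CPM with TOXdeltaN. Both TOXFL-positive libraries were thus below all 6 others, as at 3.99% of all tested genes. Nr4a3 did not pass the edgeR test over the 13329 genes (unadjusted p = 0.0115), but passed without the filter on low counts (adjusted p = 0.0056).

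Genes that separate GFP-positive from GFP-negative cells of these cultures were set between the 2 TOX forms as well, and were chosen with that earlier result known. Serpine2, a serine protease inhibitor, had 111.8 and 211.9 CPM in TOXFL-positive cells and 106.3 and 171.8 CPM in TOXdeltaN-positive cells. It had 31.8 and 67.2 CPM in TOXFL-negative cells and 38.1 and 75.3 CPM in TOXdeltaN-negative cells. Cd81, a tetraspanin, had 16.6 and 15.4 CPM in TOXFL-positive cells and 15.8 and 16.5 CPM in TOXdeltaN-positive cells. Both genes stood above the negative cells with either form and overlapped between the forms. The 95% intervals of the log2 fold change were -0.74 to 1.18 for Serpine2 and -0.31 to 0.28 for Cd81. With the replicate block these intervals were -0.04 to 0.41 for Serpine2 and -0.30 to 0.27 for Cd81.

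Slc28a2b, a nucleoside transporter gene, stood below the negative cells with either form. It had 63.5 and 65.2 CPM in TOXFL-positive cells and 58.5 and 49.1 CPM in TOXdeltaN-positive cells. It had 138.6 and 124.0 CPM in TOXFL-negative cells and 109.0 and 105.4 CPM in TOXdeltaN-negative cells. As with Gbp10, the TOXFL cells were above the TOXdeltaN cells in both fractions, with a log2 fold change of 0.26 (95% interval 0.01 to 0.51) among positive and of 0.29 among negative cells, neither of which passed the test over all genes. Penk, which encodes the precursor of the enkephalins, had 4.84 and 19.1 CPM in TOXFL-positive cells and 3.62 and 17.5 CPM in TOXdeltaN-positive cells. Replicate 2 was higher than replicate 1 in each positive group, by more than the forms differed. With the replicate block the 95% interval of the Penk log2 fold change was -0.13 to 0.63. Asb2, a subunit of a ubiquitin ligase, had 12.96 and 22.31 CPM in TOXFL-positive cells and 15.3 and 18.7 CPM in TOXdeltaN-positive cells. Cdkn1a, the cell-cycle inhibitor p21, had 46.2 and 62.1 CPM in TOXFL-positive cells and 49.7 and 78.4 CPM in TOXdeltaN-positive cells. Its 95% interval was -0.84 to 0.36 without the replicate block. With the block it was -0.44 to -0.01, which leaves out 0, at an adjusted p of 0.511 (edgeR).

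**Figure D3:**
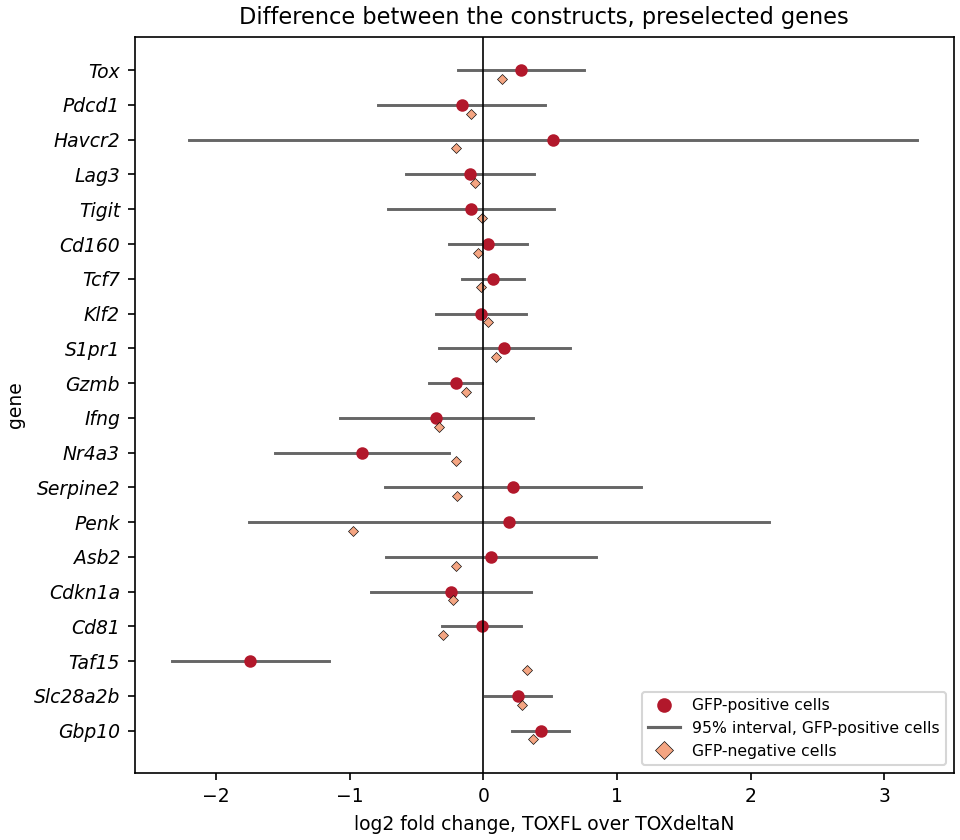
Log2 fold change of TOXFL-positive over TOXdeltaN-positive cells for Tox and 19 further genes, with 95% intervals from edgeR; diamonds give TOXFL-negative over TOXdeltaN-negative cells. Taf15 lies farthest from 0 at -1.74, and most of the other intervals cross 0.

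The remaining T cell lists held few genes near the threshold. Of 24 cytokine receptors, 2 had an unadjusted p under 0.05 and both were higher: Il6st, the shared signalling receptor gp130, with 108.7 and 113.2 CPM in TOXFL-positive cells and 96.6 and 72.2 CPM in TOXdeltaN-positive cells, and Tgfbr1, a receptor of TGF-beta. Tgfbr1 had 33.3 and 31.1 CPM in TOXFL-positive cells and 25.5 and 16.6 CPM in TOXdeltaN-positive cells. Of this list 3 genes had a log2 fold change below 0. For Il6st and Tgfbr1 it was TOXdeltaN-positive replicate 2 that lay lowest. Il2rb, the receptor of this list with the highest level, had 1201 and 1277 CPM in TOXFL-positive cells and 1235 and 1159 CPM in TOXdeltaN-positive cells.

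Among 26 chemokine receptors and adhesion molecules, the integrin chains Itgav and Itga6 and the receptor Cxcr5 had an unadjusted p under 0.05. Itgav had 50.2 and 51.6 CPM in TOXFL-positive cells and 45.2 and 35.6 CPM in TOXdeltaN-positive cells. Itga6 had 102.4 and 102.4 CPM in TOXFL-positive cells and 94.1 and 77.3 CPM in TOXdeltaN-positive cells. Here too TOXdeltaN-positive replicate 2 was the lowest library. Of 17 costimulatory receptors, Tnfrsf14 had 3.01 and 2.26 CPM in TOXFL-positive cells and 4.07 and 4.04 CPM in TOXdeltaN-positive cells, at an unadjusted p under 0.05. None of the 15 effector and residency transcription factors, the 13 receptors of NK cell type or the 24 genes of the T cell receptor complex and its proximal signalling reached it, and the medians of these 3 lists were -0.02, -0.06 and 0.08 in log2 fold change. The 13 genes of the CD4 and CD8 lineage had a median of -0.01. No gene of any of these lists passed the edgeR test over all genes.

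Of the 2 most abundant members of each list, several with a known part in T cell identity, signalling and growth had intervals that held 0. Among T cell genes the log2 fold change was -0.14 (95% interval -0.33 to 0.05) for Nkg7, a protein of cytotoxic granules. It was 0.06 (95% interval -0.13 to 0.24) for Ccr7, the chemokine receptor of lymph node homing. It was 0.10 (95% interval -0.15 to 0.34) for Tbx21, which encodes T-bet, and 0.17 (95% interval -0.20 to 0.53) for Runx3, both transcription factors of CD8 effector cells. None of these 4 intervals leaves 0 out. Among genes of receptor signalling and growth the interval was -0.20 to 0.20 for Lck, the kinase that phosphorylates the T cell receptor complex. It was -0.16 to 0.22 for Myc, the transcription factor of growth, and -0.28 to 0.23 for Mki67, which encodes the proliferation antigen Ki-67. A doubling or a halving lies outside each of these 7 intervals. Other abundant members, mt-Co1, mt-Co3, H2ac8, H1f4, Rpl13, Rplp0, Npm1, Mif and Tubb5, had 95% intervals that lay below 0, from -1.40 to -0.32 for H2ac8 to -0.67 to -0.02 for Mif, with an adjusted p of 0.822 each (edgeR).

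No interferon-stimulated gene passed the test over all genes. Of 44 tested, 13 had a log2 fold change below 0, and the median was 0.12 among positive and 0.07 among GFP-negative cells. An unadjusted p under 0.05 was seen for 2 of them, Gbp10 and Stat2, a transcription factor of the type I interferon response. Stat2 had 63.5 and 69.2 CPM in TOXFL-positive cells and 58.5 and 40.4 CPM in TOXdeltaN-positive cells. As with Gbp10, GFP-negative cells had the same order without overlap. They had 80.9 and 82.7 CPM of Stat2 with TOXFL and 63.8 and 66.4 CPM with TOXdeltaN, a log2 fold change of 0.33. The positive groups did not overlap for 8 genes of the list in the higher direction and for 2 in the lower, beside 15.9% and 16.1% of all tested genes. TOXdeltaN-positive replicate 2 was the low library for Stat2, and without it the list's median was -0.04.

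The lists that stood farthest from 0 were those of the protein synthesis machinery, of the mitochondrial genome and of histones, all lower in TOXFL-positive cells. Of 46 ribosomal protein genes all 46 had a log2 fold change below 0, beside 6497 of all 13329 tested genes. The median of the list was -0.33. An unadjusted p under 0.05 was seen for 41 of the 46, beside 3.55% of all tested genes in the lower direction. None of the 46 passed after adjustment over all genes. Their summed level was 26440 and 22770 CPM in TOXFL-positive cells and 27370 and 34120 CPM in TOXdeltaN-positive cells. In GFP-negative cells the sums were 25480 and 26990 CPM with TOXFL and 27380 and 28040 CPM with TOXdeltaN. TOXFL-positive replicate 2 was the lowest and TOXdeltaN-positive replicate 2 the highest of the 8 libraries. The median over the list was -0.06 between the replicates 1 and -0.61 between the replicates 2, so most of the distance rests on the replicates 2. Without TOXdeltaN-positive replicate 2 the median was -0.18. These genes have near-identical copies, and how reads were shared between copies rests on the authors' estimation. Rpl13, a protein of the large subunit, had 1659 and 1513 CPM in TOXFL-positive cells and 1713 and 2082 CPM in TOXdeltaN-positive cells.

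The 13 protein-coding genes of the mitochondrial genome had a median log2 fold change of -0.51, and all 13 were below 0. At an unadjusted p under 0.05 stood 9 of them, beside 3.55% of all tested genes in the lower direction. The 13 genes summed to 7069 and 4414 CPM in TOXFL-positive cells and to 7690 and 7988 CPM in TOXdeltaN-positive cells. In GFP-negative cells they summed to 8297 and 8375 CPM with TOXFL and to 9192 and 8972 CPM with TOXdeltaN. TOXFL-positive replicate 2 stood apart from the other 7 libraries, and without it the median was -0.14. mt-Co1, a subunit of cytochrome c oxidase, had 1808 and 1159 CPM in TOXFL-positive cells and 2068 and 2210 CPM in TOXdeltaN-positive cells. The nuclear genes of the respiratory chain lay nearer to 0. Of 41 tested 39 had a log2 fold change below 0, and the median was -0.19. An unadjusted p under 0.05 was seen for 8, all lower, beside 3.55% of all tested genes in that direction. The sums of the 41 genes were 9911 and 9813 CPM in TOXFL-positive cells and 10100 and 11690 CPM in TOXdeltaN-positive cells. Without TOXdeltaN-positive replicate 2 their median was -0.07, and with a length offset it was -0.09.

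Transcripts of replication-dependent histone genes are made in S phase and mostly lack a poly(A) tail. The 29 tested genes of this list had a median of -0.42, with 24 below 0. At an unadjusted p under 0.05 stood 7 of them, all lower, beside 3.55% of all tested genes in that direction. The 29 genes summed to 439.7 and 286.4 CPM in TOXFL-positive cells and to 518.0 and 576.4 CPM in TOXdeltaN-positive cells. In GFP-negative cells the sums were 351.4 and 374.2 CPM with TOXFL and 383.2 and 403.0 CPM with TOXdeltaN. The positive groups did not overlap in this sum, and TOXFL-positive replicate 2 lay below all negative libraries. The median was -0.21 without TOXFL-positive replicate 2 and -0.18 without TOXdeltaN-positive replicate 2. The proliferation lists lay nearer to 0. Of 25 genes of DNA replication and 25 of mitosis and cytokinesis, 0 had an unadjusted p under 0.05, and their medians were -0.01 and 0.09. Top2a, the topoisomerase of dividing cells, had 958.7 and 907.1 CPM in TOXFL-positive cells and 972.6 and 764.6 CPM in TOXdeltaN-positive cells.

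**Figure D4:**
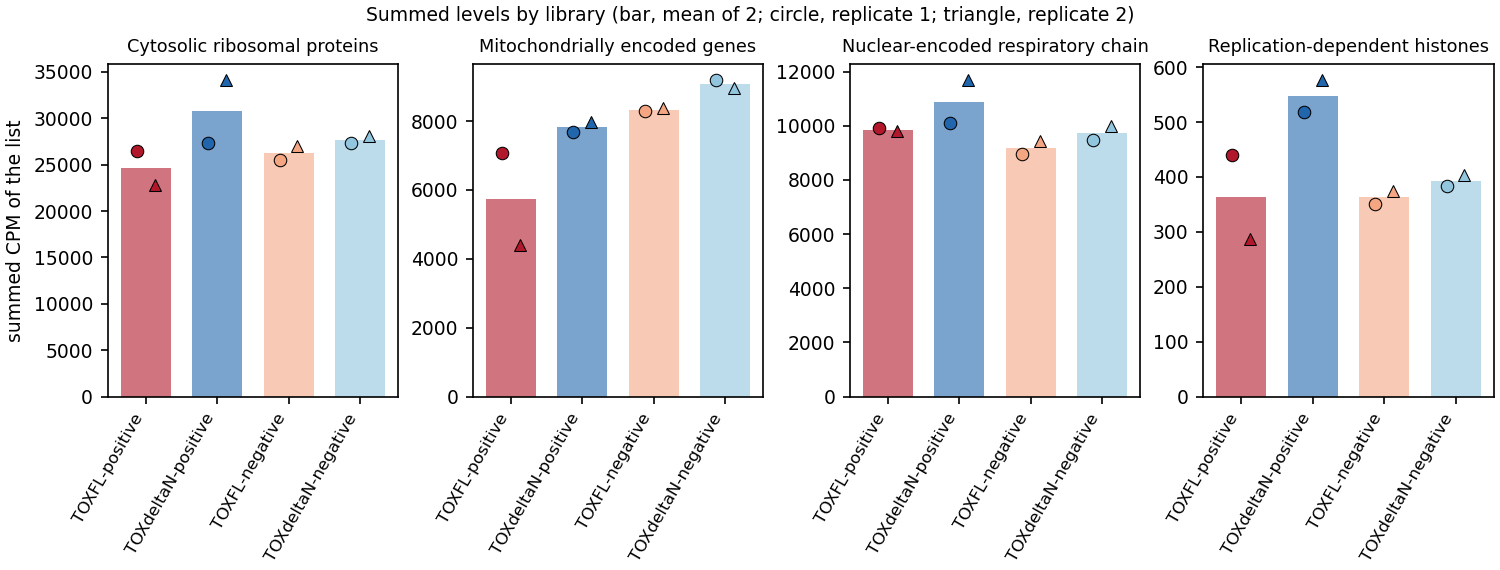
Summed CPM of 4 gene lists by library (circles replicate 1, triangles replicate 2, bars the group mean). TOXFL-positive replicate 2 is lowest in the ribosomal protein, mitochondrial and histone sums, and TOXdeltaN-positive replicate 2 is highest in the ribosomal protein, respiratory chain and histone sums.

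RNA-binding and splicing factors, the class of Taf15, did not lie on one side. Of 37 tested, 22 had a log2 fold change below 0, and the median was -0.04. At an unadjusted p under 0.05 stood 7, all below 0, beside 3.55% of all tested genes in that direction. The 7 were Taf15, the helicases Ddx17 and Dhx9, and the splicing factors U2af1, Tra2a, Tra2b and Luc7l2. Dhx9 had 64.8 and 43.2 CPM in TOXFL-positive cells and 109.9 and 79.1 CPM in TOXdeltaN-positive cells, a log2 fold change of -0.81. Ddx17 had 42.5 and 23.4 CPM in TOXFL-positive cells and 60.5 and 59.5 CPM in TOXdeltaN-positive cells, a log2 fold change of -0.87. In both genes TOXFL-positive replicate 2 was the lowest library of the study. U2af1 had 136.4 and 125.2 CPM in TOXFL-positive cells and 157.8 and 179.0 CPM in TOXdeltaN-positive cells, and Tra2b had 331.7 and 304.8 CPM in TOXFL-positive cells and 384.8 and 394.1 CPM in TOXdeltaN-positive cells. The groups did not overlap for 11 of the 37 in the lower and for 6 in the higher direction, beside 16.1% and 15.9% of all tested genes.

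Several genes were named after their values were seen, as the largest of the lower genes in other lists. Emd, the nuclear envelope protein emerin, had 36.1 and 19.1 CPM in TOXFL-positive cells and 62.4 and 54.4 CPM in TOXdeltaN-positive cells, a log2 fold change of -1.08, and was called by DESeq2 (adjusted p = 0.000756). Max, the partner of MYC, had 56.5 and 27.5 CPM in TOXFL-positive cells and 98.3 and 76.4 CPM in TOXdeltaN-positive cells, a log2 fold change of -1.06. Npm3, a nucleolar chaperone, had 17.7 and 6.69 CPM in TOXFL-positive cells and 34.3 and 30.7 CPM in TOXdeltaN-positive cells, a log2 fold change of -1.42. In these genes, as in Stk11, both TOXFL-positive libraries lay below the other 6 and replicate 2 lay below replicate 1. Over all tested genes both TOXFL-positive libraries lay below the other 6 at 3.99%. The other named genes that DESeq2 called, all lower, were Taf15, Stk11, Ehmt2, Eml2, Dhx9, Ddx17, Lars2, H1f4, H2ac8, Raly, Cdv3, Tatdn2, Hnrnpa0 and BC005537. The rest of its 19 calls were predicted genes, both of its higher ones among them.

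The lists around these genes had medians near that of all genes. The medians were 0.04 for 16 nuclear envelope genes, 0.05 for 25 histone methyltransferases, 0.03 for 11 genes of the MYC and MAX network and -0.07 for 27 genes of ribosome biogenesis. At an unadjusted p under 0.05 stood Emd and Sun2 in the first list, Setd1a, Setd1b and Ehmt2 in the second, Max and Mxd1 in the third, and Nop58, Npm1 and Npm3 in the fourth. Mxd1, a repressor that competes with MYC for MAX, had 48.3 and 52.2 CPM in TOXFL-positive cells and 41.6 and 33.6 CPM in TOXdeltaN-positive cells. Sun2, which links the nuclear envelope to the cytoskeleton, had 37.42 and 15.03 CPM in TOXFL-positive cells and 70.7 and 36.5 CPM in TOXdeltaN-positive cells. Setd1b, a histone H3 lysine methyltransferase, had 5.143 and 3.797 CPM in TOXFL-positive cells and 7.21 and 8.15 CPM in TOXdeltaN-positive cells. Mxd1 alone of these 10 genes had a log2 fold change above 0.

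Most metabolic and stress lists had medians near 0. They were -0.05 for 23 glycolysis genes, 0.004 for 27 genes of cholesterol and fatty acid synthesis, -0.02 for 29 genes of amino acid stress and the unfolded protein response and -0.03 for 23 heat shock genes. Further medians were 0.09 for 17 metallothioneins and zinc transporters, -0.04 for 22 cell-cycle inhibitors, and -0.03 for 15 genes of the BCL2 family. The 13 tubulins lay lower, with a median of -0.14 among positive and -0.10 among GFP-negative cells, and 11 were below 0. The positive groups lay apart for 7 of them in the lower direction and 1 in the higher, beside 16.1% and 15.9% of all tested genes. Within these lists, Bak1, a pro-apoptotic BCL2 protein, had 3.69 and 1.57 CPM in TOXFL-positive cells and 5.61 and 5.96 CPM in TOXdeltaN-positive cells. Tubb5, a beta-tubulin, had 852.8 and 742.4 CPM in TOXFL-positive cells and 928.9 and 969.4 CPM in TOXdeltaN-positive cells. The metallothionein Mt1 had 7.55 and 8.57 CPM in TOXFL-positive cells and 10.7 and 11.4 CPM in TOXdeltaN-positive cells. In GFP-negative cells Mt1 had 4.81 and 4.68 CPM with TOXFL and 5.78 and 5.91 CPM with TOXdeltaN, a log2 fold change of -0.30. Bak1, Tubb5 and Mt1 had an unadjusted p under 0.05 and positive groups that did not overlap. In the higher direction the same held for Trp53inp1 (log2 fold change 0.27), Hsd17b7 (0.32), Dhcr7 (0.22), Dnajb9 (0.46) and Slc39a10 (0.28), and in the lower also for Bmf (-0.85), Mvk (-0.44), Manf (-0.25) and Hsp90aa1 (-0.34). None of them passed the edgeR test over all genes.

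**Figure D5:**
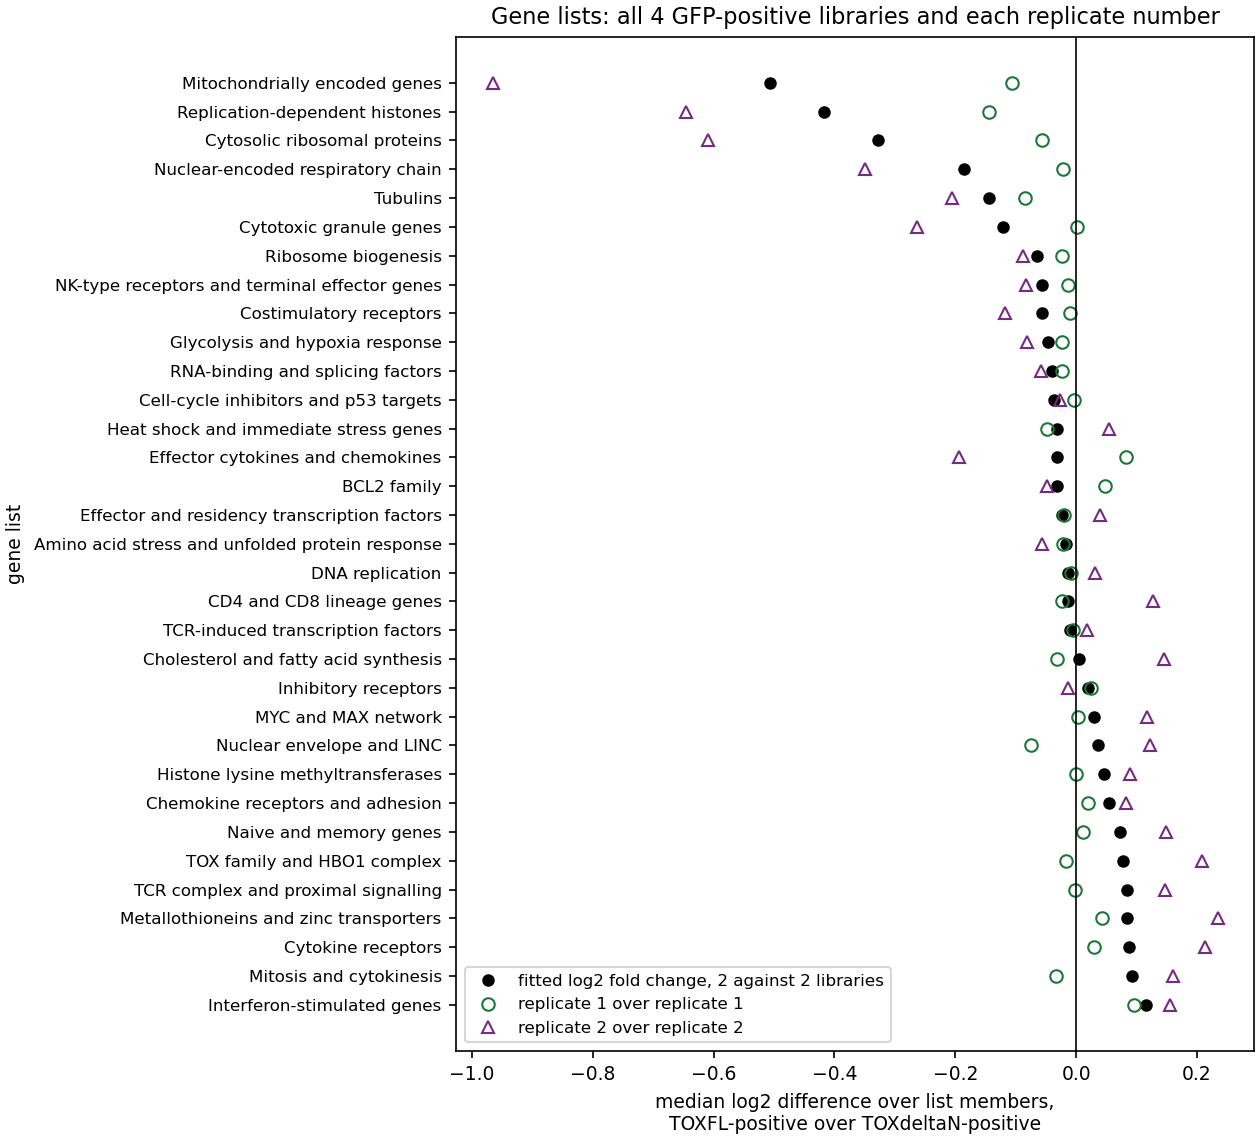
Median log2 fold change of TOXFL-positive over TOXdeltaN-positive cells for each of 33 gene lists: black from the fit over all libraries, green circles between the replicates 1 and purple triangles between the replicates 2. The mitochondrial (-0.51), histone (-0.42) and ribosomal protein (-0.33) lists lie lowest, and in each of them the replicates 2 lie farther from 0 than the replicates 1.

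The GFP-negative cells give the background of the comparison, since they differ in which vector their culture was given. TOXFL-negative against TOXdeltaN-negative cells gave 0 genes at an adjusted p under 0.05 in edgeR, 8 in DESeq2, and 328 genes (2.46%) at an unadjusted p under 0.05. For the difference of the positive and the negative comparison, edgeR called 0 genes, DESeq2 called 7, and 318 genes (2.39%) had an unadjusted p under 0.05. The medians of the negative comparison were -0.08 for the ribosomal protein list, -0.13 for the mitochondrial list and -0.02 for the histone list, beside -0.33, -0.51 and -0.42 among positive cells. In the negative comparison the groups lay apart in the lower direction for 30 of 46 ribosomal protein genes, 11 of 13 mitochondrial genes and 4 of 29 histone genes. Among positive cells these counts were 42, 11 and 15. Over all 13329 tested genes, the groups lay apart in the lower direction at 2216 in the negative comparison and at 2141 (16.1%) in the positive one. In the fit over all libraries the positive comparison thus held more genes at an unadjusted p under 0.05, 768, than the negative one. Fitted on the 4 GFP-positive libraries alone, with fewer genes tested, the positive comparison held 355 (edgeR). Replicates differed more in the positive groups (chi-square per degree of freedom 19.7 with TOXFL and 40.1 with TOXdeltaN) than in the negative groups (11.6 each). The size of the excess thus depended on the fit, and no test of it was made.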

How the data were processed

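The study measured RNA from 8 ng of total RNA per sample with SMART-Seq v4 and Nextera XT, a kit pair that does not mark strand, so overlapping genes on opposite strands cannot be told apart. The deposited table holds estimated counts per gene, which the authors made with RSEM 1.2.28 and deposited as whole numbers; bcl2fastq 2.20, cutadapt and STAR 2.6.1 and the build GRCm38 are named per the submitters' processing notes. Of 31907 rows, 92 spike-in rows were left out. Coordinates and exonic lengths came from GENCODE M21, where 31748 gene IDs matched without their version; the annotation release the authors used is not given in the sources used here.

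The counts were fitted in edgeR 4.0.16 (R 4.3.3) with 4 group means over all 8 libraries, TMM scaling, filterByExpr (minimum count 10, minimum total count 15) and the quasi-likelihood test, with Benjamini-Hochberg adjustment over 13329 genes at 0.05; totals ran from 25059112 to 31240067. CPM values are these counts scaled to a library total of 1e+06 after TMM normalisation. The alternatives were RLE scaling, no filter, a mean of at least 8 CPM, DESeq2 1.42.0, limma-voom (limma 3.58.1), the 4 GFP-positive libraries alone, a replicate block, a length offset (loess, span 0.5), both together, and each library left out.

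Libraries with the same replicate number deviated together in all 6 pairs of groups (correlation of deviations 0.168 to 0.241 over the tested genes), so the numbers were taken to pair the libraries. The labels themselves do not state a pairing.

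Genes named are Tox; those called without or with the block, at a mean of at least 1 CPM and with groups that do not overlap, up to 15 a direction, filled to 5 by unadjusted p; in each of 33 lists the called members or otherwise some of the 2 most abundant; and 19 genes chosen from an earlier account of the vector comparisons and from knowledge of T cells. List members with an unadjusted p under 0.05 were also named, after their values were seen. The members and lists were chosen with earlier results of these data known. Among the marker lists, the antigen receptor constant genes and a few others were not analysed here.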

Additional observations from a re-analysis of the deposited data

How the results depend on the processing

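Without a filter on low counts, edgeR called 116 genes between the positive groups (30 higher and 86 lower in TOXFL-positive cells), 37 between the negative groups and 45 for the difference of the comparisons. DESeq2 called 19, 8 and 7. The replicate block gave 1 positive call (Taf15), the block with a length offset gave 1, and the GFP-positive libraries alone gave 1, a predicted gene. RLE scaling, the 8 CPM filter, limma-voom and the length offset alone gave 0. With single libraries left out the positive comparison gave 0 to 704 calls without the replicate block (29 without TOXFL-positive replicate 1, 704 without TOXdeltaN-positive replicate 1, 1 without TOXdeltaN-negative replicate 1) and 0 to 1934 with it (76 without TOXFL-positive replicate 1, 1934 without TOXdeltaN-positive replicate 1, and 2 without either TOXFL-negative library). The negative comparison gave 0 to 8 and the difference 0 to 449, with 18 under the block without TOXFL-positive replicate 1. The cause was not tested. The block changed no call of a gene named above other than that of Taf15.

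The directions of the 10 genes with the smallest p held under all settings where they were read. Directions and list medians were not read in the fits that joined the replicate block to a left-out library. With a length offset the log2 fold changes of Tigit (0.073), Klf2 (0.061) and Cd81 (0.017) reversed; with the block and the offset they were 0.071, 0.066 and 0.016. With libraries left out, log2 fold changes of these genes changed sign: Pdcd1 (-0.47 to 0.22), Havcr2 (-0.31 to 3.04), Lag3 (-0.26 to 0.08), Tigit (-0.37 to 0.24), Cd160 (-0.089 to 0.177), Tcf7 (-0.074 to 0.238), Klf2 (-0.19 to 0.14), S1pr1 (-0.10 to 0.47), Ifng (-0.72 to 0.13), Serpine2 (-0.31 to 0.61), Penk (-1.11 to 1.72), Asb2 (-0.39 to 0.40), Cdkn1a (-0.53 to 0.12) and Cd81 (-0.069 to 0.044). The medians of the ribosomal protein (-0.47 to -0.18), mitochondrial (-0.94 to -0.14) and histone lists (-0.63 to -0.18) stayed below 0 under all settings where they were read.

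Each library held at least 25059112 counts. Of the genes followed across the settings, Havcr2 (-2.20 to 3.24) and Penk (-1.76 to 2.13) had the widest intervals of the log2 fold change without the replicate block. Serpine2, at 106.3 to 211.9 CPM in positive cells, then had a wider interval (-0.74 to 1.18) than the low gene Ifng (-1.08 to 0.37). With the block the order of these 2 genes was reversed, at -0.04 to 0.41 for Serpine2 and -1.03 to 0.35 for Ifng. The interval of Penk was then -0.13 to 0.63. The widths thus depended on whether the libraries were paired. The fit with positive libraries alone gives no value for the other comparisons, and 4 genes fall under the 8 CPM filter.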
